A study of Mus musculus with 24 samples.

Results

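The mRNAs of 9 subunits of the Polycomb repressive complexes were followed through loss of Tet proteins and through LIF withdrawal in murine embryonic stem cells (ESCs). The genes were Ezh1, Ezh2, Eed, Suz12, Jarid2 and Mtf2 of Polycomb repressive complex PRC2, and Rnf2, Cbx2 and Cbx7 of PRC1. They were taken by name, with the first line of the table for each symbol, and are 9 of 22926 symbols in the tables. The libraries came from 129/SVj derived ESCs grown without feeders on gelatin, all from 1 parental line that carries an eGFP reporter in Oct4 (Oct4:IRES:eGFP). D0 cells were undifferentiated and grown with LIF, and D6 cells had spent 6 days in ESC media without LIF. The genotypes were WT and Tet1-/-, with 3 clones each per day, and, with 2 clones each per day, Tet2-/-, the double knockout Tet1-/-:Tet2-/- (DKO) and the triple knockout Tet1-/-:Tet2-/-:Tet3-/- (TKO). Each library was 1 clone, and the knockout clones were isolated after transient CRISPR/Cas9 transfection that leaves indels in the Tet genes. A p-value here therefore measures the spread between clones of 1 line, and a feature that arose in a clone cannot be told apart from its genotype in groups of 2.

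Polycomb proteins keep developmental genes silent in ESCs. PRC2 adds a repressive methyl mark to histone H3. Ezh2 or Ezh1 is its catalytic subunit, Eed binds the finished mark and stimulates the enzyme, Suz12 is the scaffold, and Jarid2 and Mtf2 help bring the complex to CG-rich DNA. PRC1 ubiquitinates histone H2A through Rnf2 (Ring1B), and its canonical form reads the PRC2 mark through a Cbx protein, with Cbx7 the main Cbx of ESCs and Cbx2 used more in differentiating cells. Tet proteins oxidise methylated cytosine, which in these cells lies mostly in CG dinucleotides.

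The 250 bases before the RefSeq start sites of 3 of the 4 genes that fell in WT cells, and of Suz12, 1 of 3 that did not pass the test there, are shown because CG dinucleotides, in capitals, are where Tet proteins act and where Mtf2 docks. The sequences are from RefSeq (GRCm38.p6), 5′ to 3′ on the strand of the gene, and no methylation was measured in the tables used here. Eed is at chr7:89980977-89981226 (-), Jarid2 at chr13:44730524-44730773 (+), Mtf2 at chr5:108065424-108065673 (+) and Suz12 at chr11:79992856-79993105 (+), where Jarid2 and Mtf2 each have a further start site in the table.
Eed: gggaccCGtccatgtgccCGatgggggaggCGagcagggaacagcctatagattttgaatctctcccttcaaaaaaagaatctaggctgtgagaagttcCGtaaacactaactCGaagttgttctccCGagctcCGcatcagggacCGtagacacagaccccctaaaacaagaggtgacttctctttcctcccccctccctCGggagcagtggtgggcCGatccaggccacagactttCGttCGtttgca
Jarid2: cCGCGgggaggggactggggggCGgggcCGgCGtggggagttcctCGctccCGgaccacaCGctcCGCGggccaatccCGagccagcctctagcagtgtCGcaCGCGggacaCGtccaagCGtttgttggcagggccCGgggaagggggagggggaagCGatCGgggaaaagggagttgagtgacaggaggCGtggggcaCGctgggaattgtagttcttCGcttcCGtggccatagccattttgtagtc
Mtf2: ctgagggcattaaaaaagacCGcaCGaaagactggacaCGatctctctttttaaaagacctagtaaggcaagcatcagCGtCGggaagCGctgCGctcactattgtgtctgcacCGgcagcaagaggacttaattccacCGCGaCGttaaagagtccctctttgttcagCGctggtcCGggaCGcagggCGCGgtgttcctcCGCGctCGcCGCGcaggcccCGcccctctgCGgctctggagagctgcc
Suz12: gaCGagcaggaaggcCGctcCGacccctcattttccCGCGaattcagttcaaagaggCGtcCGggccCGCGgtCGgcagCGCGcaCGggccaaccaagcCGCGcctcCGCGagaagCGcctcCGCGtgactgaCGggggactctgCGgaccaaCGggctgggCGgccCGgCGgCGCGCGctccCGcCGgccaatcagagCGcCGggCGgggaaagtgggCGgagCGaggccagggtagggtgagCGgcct
These windows held 12 CG dinucleotides for Eed, 23 for Jarid2, 23 for Mtf2 and 37 for Suz12. The motif CG reads the same on both strands. Of 32851 promoter windows of the same length, 92.1% held it at least once and the median was 6. Fewer CG than in Eed were found in 66.5% of windows, fewer than in Jarid2 or Mtf2 in 86.7%, and fewer than in Suz12 in 97.8%. The further start site of Jarid2 had 22 CG, and that of Mtf2 had 2, with fewer in 18.8% of windows. Of the members not shown, Cbx7, which also fell, had 23 CG, Ezh2 and Rnf2, which did not pass, had 23 and 20, and Ezh1, which rose, had 14. No window was given for Cbx2. The number of CG is a property of the sequence and was not tested against expression.

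The libraries held 18400463 to 37290208 counts, and levels are given as CPM, the share of a library's counts on a fixed scale, after TMM scaling over all 24 libraries. The targeted genes were checked first, although indels need not remove an mRNA. Tet2 mRNA was 20.9 to 23.2 CPM in Tet2-/- against 87.9 to 93.9 in WT at D0, and 15.9 to 16.6 against 12.3 to 15.97 at D6. Tet3 was 2.84 to 4.43 in TKO against 5.05 to 7.94 in WT at D0, and 7.72 to 8.74 against 13.3 to 20.98 at D6. In the combined knockouts Tet2 at D0 was 22.3 and 55.7 CPM in DKO and 8.16 and 42.5 in TKO, all below WT. At D6 it was 5.73 and 9.99 in DKO and 10.5 and 16.2 in TKO. Tet2-/- and TKO thus overlapped WT or lay above it at D6, where the Tet2 level does not check their labels. Tet1 at D0 was 93.4 to 358 CPM in Tet1-/-, 230.5 and 372 in DKO, 41.7 and 567 in TKO and 220.3 to 431 in WT. At D6 it was 82.4 to 190 in Tet1-/-, 80.8 and 157 in DKO, 57.7 and 249 in TKO and 108 to 125 in WT. TKO replicate 1 was above every WT library of its day, so the Tet1 level does not check the labels of Tet1-/-, DKO or TKO. Summed over 10 pluripotency markers, levels were 6378 to 7556 CPM over all D0 libraries. At D6 the sum was 1213 to 2662 in WT and 3175 to 3399 in Tet2-/-. The sum of 9 fibroblast markers was 23.9 to 68.7 CPM at D0. It was 119 to 413 in WT and 24.4 to 26.8 in Tet2-/- at D6. In bulk RNA, fewer cells of a type and less RNA per cell cannot be told apart. A pair of clones stood apart and are named where they matter. WT clone O4.2 at D6 (WT D6 replicate 1) was high for Suz12, Jarid2 and Mtf2 among the WT clones, and TKO clone 2 (TKO replicate 2 at both days, as clone 1 is replicate 1) had raised medians over chromosomes 6 and 11.

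**Figure D1:**
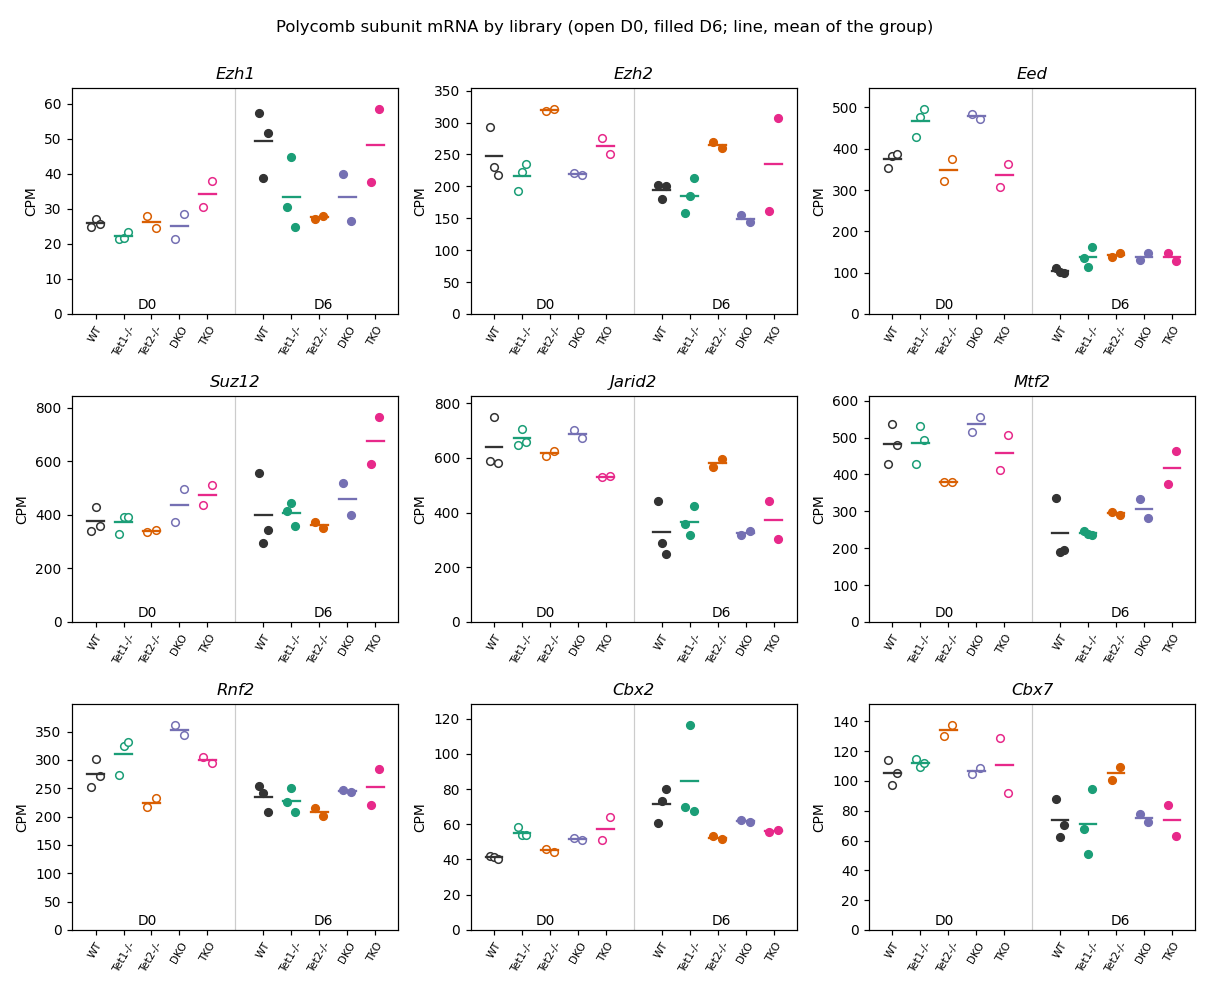
Levels of the 9 mRNAs in CPM (vertical axis, from 0, one panel per gene) in each of 24 libraries, by genotype, with D0 as open and D6 as filled circles and lines at group means. Eed at D6 lay below Eed at D0 in all libraries, between 99.7 and 161 CPM against 308 to 497, while the days overlap for the other 8 genes.

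Per kilobase of the longest coding transcript (GENCODE vM1), Eed was the highest of the 9 in D0 WT cells at 182 ± 8.71 CPM per kb (SD, n = 3). Mtf2 (119 ± 13.1), Jarid2 (107 ± 15.99), Ezh2 (93.2 ± 15.3), Rnf2 (90.8 ± 8.26) and Suz12 (85.9 ± 10.9) followed, and neighbours in this order overlapped between clones. Cbx7 stood at 31.1 ± 2.46, Cbx2 at 10.8 ± 0.269 and Ezh1 at 6.16 ± 0.280 CPM per kb, 3 levels that did not overlap. In D6 WT cells Eed was the sixth, at 50.1 ± 2.92 CPM per kb, and Suz12 was first at 90.9 ± 31.8, with a spread that reached Rnf2 (77.4 ± 7.85), Ezh2 (73.2 ± 4.49) and Mtf2 (59.1 ± 20.5). Cbx7 (21.8 ± 3.81) and Cbx2 (18.8 ± 2.52) overlapped at D6. Ezh1 stayed lowest at 11.7 ± 2.27 CPM per kb. Reads were assigned to transcripts by the authors, so a gene's own mix of transcripts could change this order.

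The first question was how the subunits change when LIF is withdrawn from WT cells. In WT, 2 of the 9 rose (Ezh1 and Cbx2) and 4 fell (Eed, Mtf2, Jarid2 and Cbx7), by the quasi-likelihood test of edgeR at a Benjamini-Hochberg adjusted p under 0.05. Of 15639 genes tested, 66.3% passed this test in WT (33.5% higher and 32.8% lower), so that 6 of 9 is close to the share of all genes. Of 10 cell cycle markers 7 fell and 1 rose in WT, and their sum was 6519 to 6995 CPM at D0 and 4202 to 5550 at D6, beside the pluripotency markers, of which 10 of 10 fell. Their part in the changes of the members was not tested. The median log2 fold change of the 9 was -0.35, against 0.01 over all genes tested. Eed and Mtf2 also passed the fold threshold of 2 that the study used, as did 34% of genes. The days did not overlap in CPM for 7 of 9 members, Suz12 and Rnf2 being the others, against 70.7% of genes.

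Eed, the subunit that reads the PRC2 mark, had the steepest fall of the 9. In D0 WT it was 354, 384 and 387 CPM, and in D6 WT 111, 100.4 and 99.7 CPM. In Tet1-/- it went from 428, 477 and 497 CPM to 136, 114 and 161, and in DKO from 485 and 471 to 130.1 and 147. In Tet2-/- it was 322 and 375 CPM at D0 and 138 and 147 at D6, and in TKO 308 and 364 at D0 and 147 and 128 at D6. All 12 D6 libraries were below all 12 D0 libraries, which holds for 11.6% of genes tested. The fall was 3.62-fold in WT (log2 fold change -1.86 ± 0.12 SE, edgeR adjusted p = 3.18e-10), 3.41-fold in Tet1-/-, 3.46-fold in DKO, 2.45-fold in Tet2-/- and 2.44-fold in TKO, and it passed the test and the fold threshold in each genotype. Past the fold threshold were 31.1% of genes in Tet1-/-, 29.2% in DKO, 19.1% in Tet2-/- and 25.4% in TKO.

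Jarid2 and Mtf2, the accessory subunits, both fell in WT. Jarid2 was 588, 751 and 581 CPM at D0 in WT and 442, 290.0 and 250.1 at D6, a log2 fold change of -0.97 ± 0.17 (edgeR adjusted p = 6.48e-05). The D6 clones of WT were all below the D0 clones, with O4.2 the highest of them. In Tet1-/- Jarid2 went from 649, 706 and 660 CPM to 358, 317 and 424, and in DKO from 701 and 674 to 318 and 332, and it fell in both (log2 fold change -0.88 and -1.08, edgeR adjusted p = 0.000197 and 0.000268). In TKO it went from 530.4 and 533 CPM to 442 and 303 (-0.51 ± 0.21, adjusted p = 0.0447), where clone 1 kept the higher level. It was -0.25 without TKO D6 replicate 2 (adjusted p = 0.425) and -0.82 without TKO D6 replicate 1 (adjusted p = 0.0104). In Tet2-/- it was 608 and 626 CPM at D0 and 567 and 597 at D6, a difference of -0.08 ± 0.21 that did not pass (adjusted p = 0.770). The Jarid2 levels of Tet2-/- at D6 were thus above every other D6 library.

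Mtf2 in WT was 429.8, 536 and 481 CPM at D0 and 336, 189 and 195 at D6 (log2 fold change -1.01 ± 0.17, edgeR adjusted p = 3.65e-05). It also fell in Tet1-/-, from 429, 532 and 495 CPM to 248, 239 and 235 (-1.01 ± 0.17, adjusted p = 4.01e-05), and in DKO, from 515 and 556 to 334 and 281 (-0.80 ± 0.20, adjusted p = 0.00277). In Tet2-/- it went from 379.8 and 380.2 CPM to 297 and 291, which did not pass (-0.37 ± 0.20, adjusted p = 0.157) although the days did not overlap, as for 80.7% of genes in Tet2-/-. With clone as a replicate block this change passed (edgeR adjusted p = 0.0469), as it did without WT D6 replicate 1 (adjusted p = 0.0332). In TKO Mtf2 was 411 and 508 CPM at D0 and 374 and 463 at D6, with overlapping days (-0.13 ± 0.20, adjusted p = 0.599).

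Of the catalytic subunits, Ezh1 rose in WT. Ezh1, the alternative enzyme, was 24.9, 27.2 and 25.7 CPM in D0 WT and 57.4, 38.8 and 51.7 in D6 WT, a rise of 1.90-fold (log2 fold change 0.93 ± 0.21, edgeR adjusted p = 0.000786). In Tet1-/- it went from 21.3, 21.7 and 23.4 CPM to 30.6, 44.8 and 24.7, with the 3 D6 clones far apart (0.59 ± 0.21, adjusted p = 0.0197). That call was lost with clone as a replicate block (0.30, adjusted p = 0.121), and without Tet1-/- D0 replicate 1, D0 replicate 2 or D6 replicate 2 (adjusted p 0.0563, 0.0522 and 0.117). In Tet2-/- Ezh1 was 27.9 and 24.6 CPM at D0 and 27.1 and 28.1 at D6 (0.07 ± 0.26, adjusted p = 0.844). In DKO it went from 21.3 and 28.6 CPM to 39.9 and 26.6, and in TKO from 30.6 and 38.0 to 37.8 and 58.6, and neither passed (0.42 and 0.49, adjusted p = 0.178 and 0.121). With clone as a replicate block both passed (adjusted p = 0.0447 in DKO and 0.0257 in TKO).

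Ezh2, the main enzyme of dividing cells, ranged from 192 to 322 CPM over D0 libraries and from 145 to 308 over D6 libraries. In WT its log2 fold change was -0.35 ± 0.17 (edgeR adjusted p = 0.0731), with all 3 D6 clones (202, 180.4 and 200.1 CPM) below the D0 clones (293, 231 and 218). It passed in WT without either D6 TKO library (adjusted p 0.0125 and 0.0126). Ezh2 fell in DKO, from 221 and 218 CPM to 154 and 145 (-0.55 ± 0.21, adjusted p = 0.0282), a call lost without any 1 of the 4 DKO libraries (adjusted p 0.0754 to 0.122) and with scaling to library totals (adjusted p = 0.134). In TKO clone 1 it went from 276 to 161 CPM and in clone 2 from 250.4 to 308 (-0.17 ± 0.20, adjusted p = 0.511). Without D6 TKO clone 2 the change in TKO was -0.69, and over all fits with libraries left out it ranged from -0.75 to 0.22. Suz12, the scaffold, ranged from 329 to 510 CPM at D0 and from 295 to 766 at D6 and passed in no genotype, with log2 fold changes of 0.08 in WT, 0.12 in Tet1-/-, 0.10 in Tet2-/- and 0.08 in DKO. Its largest difference was in TKO, from 437 and 509.6 CPM to 589 and 766 (0.52 ± 0.23, adjusted p = 0.0647), and this passed with clone as a replicate block (adjusted p = 0.0103). It also passed there without any of WT D6 replicate 1, WT D6 replicate 2 or TKO D6 replicate 1 (adjusted p 0.0159, 0.0365 and 0.0420).

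Of the PRC1 subunits, the ubiquitin ligase gene Rnf2 ranged from 217 to 362 CPM at D0 and from 201 to 284 at D6. It fell in Tet1-/- (log2 fold change -0.44 ± 0.11, edgeR adjusted p = 0.00155) and in DKO, from 362 and 344 CPM to 248 and 243 (-0.53 ± 0.13, adjusted p = 0.00252). With library totals these were -0.24 and -0.32 (adjusted p = 0.0482 and 0.0368). In WT its difference was -0.23 ± 0.11 (adjusted p = 0.0674), and it passed without WT D0 replicate 1, WT D6 replicate 1 or TKO D6 replicate 1 (adjusted p 0.0416, 0.0388 and 0.0442). In TKO it was -0.25 ± 0.13 (adjusted p = 0.123) and -0.43 without D6 TKO clone 2 (adjusted p = 0.0312). Both readers changed in WT, in opposite directions. Cbx2 rose in WT from 42.2, 41.2 and 40.2 CPM to 61.0, 73.4 and 79.9 (0.79 ± 0.15, adjusted p = 0.000191) and in Tet1-/- from 58.3, 53.7 and 53.8 to 70.02, 116 and 67.7 (0.62 ± 0.15, adjusted p = 0.00190). The rise of Cbx2 in Tet1-/- was 0.30 with clone as a replicate block (adjusted p = 0.0581), since clone 2.2, the highest, had no D0 library, and 0.37 without that library (adjusted p = 0.00782). Cbx2 stayed within 51.5 to 62.5 CPM in the 6 D6 libraries of Tet2-/-, DKO and TKO, and passed in none of these genotypes. In DKO its change was 0.26 (adjusted p = 0.254), and it passed with library totals (0.47, adjusted p = 0.0442) and without Tet1-/- D6 replicate 2 (0.30, adjusted p = 0.0408).

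Cbx7 fell in WT from 114, 97.3 and 105 CPM to 88.0, 62.7 and 70.8 (log2 fold change -0.51 ± 0.18, edgeR adjusted p = 0.0151), a call lost without WT D0 replicate 1, WT D6 replicate 2 or WT D6 replicate 3 (adjusted p 0.0538, 0.0890 and 0.0591) and with scaling to library totals (adjusted p = 0.0768). It also fell in Tet1-/- (-0.66 ± 0.18, adjusted p = 0.00317, or -0.42 without Tet1-/- D6 replicate 2, adjusted p = 0.0384) and in TKO (-0.58 ± 0.22, adjusted p = 0.0304). The TKO call was lost without TKO D0 replicate 1 or TKO D6 replicate 2 (adjusted p 0.304 and 0.259) and with library totals (adjusted p = 0.133). In DKO it was -0.51 ± 0.22 (adjusted p = 0.0515) and passed with clone as a replicate block (adjusted p = 0.0162), and in Tet2-/- it was -0.35 ± 0.21 (adjusted p = 0.203), with 130.4 and 138 CPM at D0 and 101 and 109 at D6.

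Counted by genotype, 2 members rose and 5 fell in Tet1-/-, where 32% of genes tested rose and 31.3% fell (63.4% in all). In Tet2-/- none rose and 1 fell, against 20.4% and 19.6% of genes (40% in all). In DKO none rose and 5 fell, against 27.6% and 28% (55.6% in all), and in TKO none rose and 3 fell, against 25.2% in each direction (50.5% in all). The 1 member in Tet2-/- was Eed. With clone as a replicate block, the counts were 0 rising and 5 falling in Tet1-/- (54.1% of genes in all) and 1 rising (Ezh1) and 6 falling in DKO (58.1%). With library totals, 2 rose (Ezh1 and Cbx2) and 4 fell in DKO (53.8%). In TKO with library totals, Ezh1 (0.66, edgeR adjusted p = 0.0367) and Suz12 (0.69, adjusted p = 0.0146) rose, while Jarid2 and Cbx7 lost their calls. The TKO count was 5 with clone as a replicate block (53.1% of genes), where Ezh1 and Suz12 rose. It was 1 without TKO D0 replicate 1 (47.4%) and 5 without TKO D6 replicate 1 (45.3%). The Tet2-/- count was 2 with the block (42.6%) and without WT D6 replicate 1 (41.5%), with Mtf2 as the added gene. The Jarid2 call in TKO was lost in 16 of 24 fits that each left out 1 library, at adjusted p from 0.0517 to 0.425. These were the 9 fits without a knockout library of D0 and those without WT D6 replicate 2, Tet1-/- D6 replicate 1, either Tet2-/- or DKO library of D6, or TKO D6 replicate 2. It was lost as well with DESeq2 (adjusted p = 0.0509), with its size factors in edgeR (0.0562) and with library totals (-0.33, adjusted p = 0.199). A different number of calls is not by itself a difference between genotypes.

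**Figure D2:**
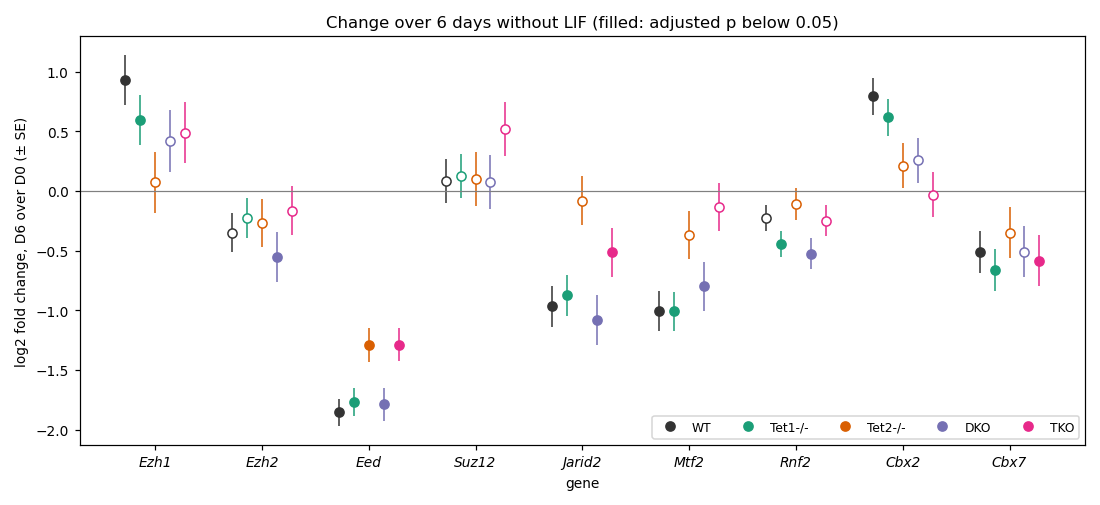
Log2 fold change from D0 to D6 with its standard error (vertical axis) for each gene and genotype, where a filled circle passed the test (adjusted p under 0.05). Eed lies lowest in every genotype, from -1.86 in WT to -1.29 in Tet2-/- and TKO, and Jarid2 in Tet2-/- stands near 0 at -0.08.

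Ratios of paralogs within a library need no scaling, and were compared over the 11 clones with a library at both days. The ratio of Ezh1 counts to Ezh2 counts was 0.0764 to 0.152 at D0 and 0.100 to 0.285 at D6. It was higher at D6 in 11 of 11 clones, by 0.80 ± 0.42 on the log2 scale (SD, n = 11), or 1.74-fold (exact permutation test swapping days within clones, two-sided, p = 0.000977, the smallest that 11 pairs can give). The 3 WT clones moved by 1.13 to 1.34 and the Tet2-/- clones by 0.19 and 0.50. Tet1-/- clone 2.4 (0.22) and TKO clone 2 (0.32) lay between the Tet2-/- clones, and the other 4 clones moved by 0.80 to 1.08. Ezh2 was the more abundant mRNA in every library.

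The ratio of Cbx2 counts to Cbx7 counts was 0.322 to 0.694 at D0 and 0.470 to 2.29 at D6. It too was higher at D6 in 11 of 11 clones, by 0.85 ± 0.41 on the log2 scale (SD, n = 11), or 1.80-fold (exact permutation test, two-sided, p = 0.000977). WT clones O4.1 and O4.13 changed the most, by 1.66 and 1.56, and WT clone O4.2 by 0.71. The lowest change was in TKO clone 2, at 0.37, and the Tet2-/- clones moved by 0.58 and 0.55. Adjusted over these 2 ratios, p stayed at 0.000977. Both ratios are built from members whose own changes are given above. Ratios of other pairs of genes were not compared, so how common such a shift is among genes is not known here. The ratios count mRNA reads, and protein was not measured.

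**Figure D3:**
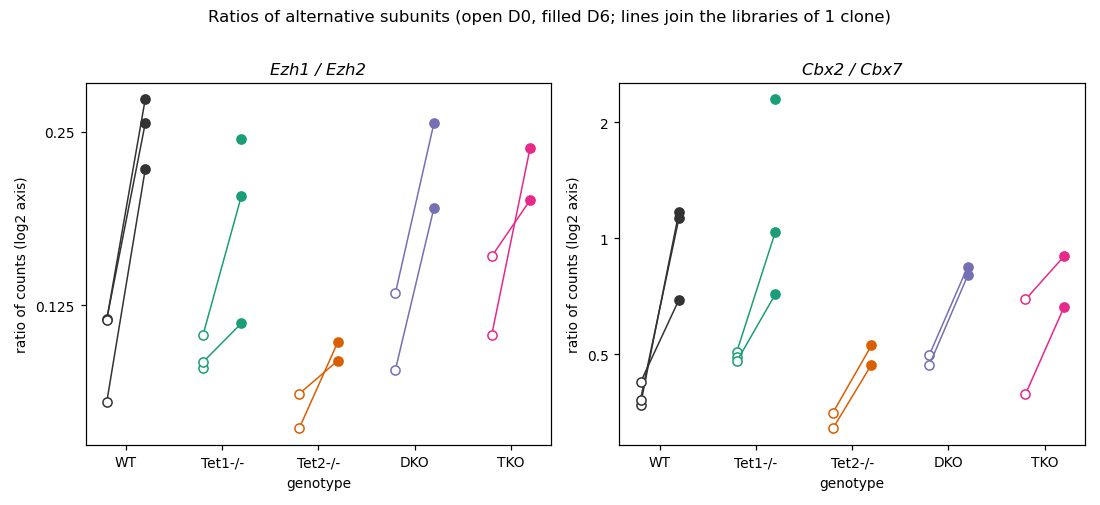
Ratio of counts of Ezh1 to Ezh2 (left) and of Cbx2 to Cbx7 (right) on log2 axes, by genotype, with D0 open, D6 filled and lines joining the libraries of 1 clone. All 11 lines rise in both panels, and the Tet2-/- clones end lowest, at 0.100 and 0.108 for Ezh1 to Ezh2.

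The next question was whether the loss of Tet proteins changes the subunits before differentiation. At D0, no member passed the test in Tet1-/- (0.0138% of 14456 genes passed), Tet2-/- (9.8%) or DKO (0.0484%) by edgeR, and 1 of 9, Cbx2, was higher in TKO (8.61%, and 4.44% as higher). At an unadjusted p under 0.05 the counts were 2, 4, 3 and 4, beside 1828, 4218, 2080 and 3813 of all 14456 genes. DESeq2 gave 1 in Tet1-/- (Cbx2, log2 fold change 0.40, adjusted p = 0.0189), 0 in Tet2-/-, 0 in DKO and 1 in TKO, where it passed 1.72%, 14.6%, 2.12% and 12.4% of genes. Cbx2 was 42.2, 41.2 and 40.2 CPM in WT and 50.8 and 63.9 in TKO (0.48 ± 0.11, edgeR adjusted p = 0.0204). It was also above every WT clone in Tet1-/-, Tet2-/- and DKO, where the lowest libraries were 53.7, 44.3 and 51.0 CPM. Groups did not overlap with WT at D0 for 57.2% of genes in Tet2-/-, 41.5% in DKO, 33.9% in TKO and 23.6% in Tet1-/-. The Cbx2 call in TKO was lost without TKO clone 2 (0.30, adjusted p = 0.0570), WT D0 replicate 2 (adjusted p = 0.0504) or WT D0 replicate 3 (adjusted p = 0.0786). It was lost as well when the median shift of its chromosome was taken as an offset (0.31, adjusted p = 0.0756).

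All genotypes of a day share 1 estimate of the spread, and the D0 counts moved with the TKO libraries. Without either D0 TKO library, Cbx2 and Eed passed in Tet1-/-, Cbx2, Eed and Rnf2 in DKO, and Ezh2, Cbx7, Mtf2 and Rnf2 in Tet2-/-, at adjusted p from 0.00869 to 0.0459. Without TKO D0 replicate 2, 3.78% of genes passed in Tet1-/-, 5.9% in DKO and 27.8% in Tet2-/-, and without replicate 1 the shares were 3.72%, 5.91% and 27.7%. Without WT D0 replicate 1, Ezh2 and Mtf2 passed in Tet2-/- (adjusted p = 0.0194 and 0.0487), with 11.5% of genes. Without TKO D0 replicate 1, which leaves clone 2 as the only TKO library, Ezh1 and Suz12 passed beside Cbx2 in TKO (adjusted p = 0.0145 and 0.0436), with 27.5% of genes. In the full fit Eed at D0 was 0.30 ± 0.09 higher in Tet1-/- (adjusted p = 0.220) and 0.34 ± 0.10 higher in DKO (adjusted p = 0.169), with all 5 of these libraries above the 3 WT clones. Ezh2 at D0 was 319 and 322 CPM in Tet2-/- against 218 to 293 in WT (0.35 ± 0.12, adjusted p = 0.0865), and Rnf2 was 217 and 232 against 251 to 301 (-0.31 ± 0.11, adjusted p = 0.0756).

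At D6, 3 of 9 members differed between Tet2-/- and WT by edgeR, close to the 28.5% of 15435 genes that passed (12.9% higher and 15.6% lower). Eed was higher, at 138 and 147 CPM against 111, 100.4 and 99.7 (log2 fold change 0.44 ± 0.14, adjusted p = 0.0383). Jarid2 was higher, at 567 and 597 CPM against 442, 290.0 and 250.1 (0.81 ± 0.23, adjusted p = 0.0262). Ezh1 was lower, at 27.1 and 28.1 CPM against 57.4, 38.8 and 51.7 (-0.86 ± 0.29, adjusted p = 0.0458). All 3 had no overlap between the groups, as did 63.1% of genes. None of the 3 reached a 2-fold change, while 14.3% of genes passed with one.

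These calls depended on single libraries, and that of Eed also on the scaling (0.39 with library totals, edgeR adjusted p = 0.0595). Eed lost its call without WT D6 replicate 2 or 3, either Tet2-/- D6 library or DKO D6 replicate 1 (adjusted p 0.0524 to 0.203), and Jarid2 without WT D6 replicate 2 or 3 or either Tet2-/- D6 library (adjusted p 0.0704 to 0.141). Ezh1 lost it in 7 of 12 such fits (without WT D6 replicate 1 or 3, Tet1-/- D6 replicate 1, or any Tet2-/- or DKO library of D6, adjusted p 0.05 to 0.19). The count was 0 without WT D6 replicate 3 (13.7% of genes), Tet2-/- replicate 1 (2.21%) or Tet2-/- replicate 2 (0%), and 1 without WT D6 replicate 2 (16.6%) or DKO D6 replicate 1 (22.4%). Mtf2 in Tet2-/- at D6 was 0.27 ± 0.22 above WT (adjusted p = 0.355), and 0.60 without WT clone O4.2 (adjusted p = 0.00626). Ezh2 was 0.43 ± 0.21 above WT (adjusted p = 0.138), at 270 and 261 CPM against 180.4 to 202, without overlap, as for 63.1% of genes. Cbx2 passed as lower without Tet1-/- D6 replicate 2 (-0.47, adjusted p = 0.0142). In a joint fit of both days the count was 5 (36.5% of genes), with Cbx2 at 51.5 and 53.1 CPM against 61.0 to 79.9 in WT (-0.45, adjusted p = 0.0496) and Cbx7 at 101 and 109 against 62.7 to 88.0 (0.51, adjusted p = 0.0467).

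Marker lists were also compared between Tet2-/- and WT at D6, where 28.5% of all genes passed (12.9% higher and 15.6% lower). Oct4 (Pou5f1) was 532 CPM in Tet2-/- and 232 in WT on average at D6 (log2 fold change 1.18 ± 0.27, edgeR adjusted p = 0.0128), and 3 of 10 pluripotency markers passed as higher and none as lower. Of 18 developmental genes known to be bound by Polycomb in ESCs, 16 were tested, and 11 were lower and 2 higher. The sum over all 18 was 94.4 to 125 CPM in Tet2-/- against 297 to 932 in WT. Of 10 cell cycle markers 4 were higher, with a summed level of 5749 to 5867 CPM against 4202 to 5550. Of 9 fibroblast markers 4 were lower. The part of these differences in the levels of Eed, Jarid2 and Ezh1 was not tested.

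In the other genotypes at D6, 0 of 9 members passed by edgeR in Tet1-/-, DKO or TKO, where 0% of genes passed in each. At an unadjusted p under 0.05 the counts were 2, 1 and 3, beside 1949, 2250 and 3629 of all 15435 genes. DESeq2 gave 0, 0 and 2, and passed 0.739%, 2.26% and 9.48% of genes. The DESeq2 calls in TKO were Mtf2 (log2 fold change 0.82, adjusted p = 0.0136) and Suz12 (0.78, adjusted p = 0.0312). By edgeR, Mtf2 in TKO was 374 and 463 CPM against 336, 189 and 195 in WT (0.81 ± 0.22, adjusted p = 0.0820), and Suz12 was 589 and 766 against 556, 295 and 342 (0.78 ± 0.24, adjusted p = 0.0992). Of 10 cell cycle markers none passed by edgeR in TKO at D6 and 10 of 10 were positive, where 7958 of all 15435 genes were positive. The sum of the 10 was 5438 to 6806 CPM against 4202 to 5550 in WT. Of 10 pluripotency markers none passed, 9 were positive and the sum was 2579 to 2867 CPM against 1213 to 2662, and the part of either list in these differences was not tested. Without WT clone O4.2 both Mtf2 and Suz12 passed (1.14 and 1.105, adjusted p = 0.0101 and 0.0127). Leaving out libraries also changes the spread shared by all genes, so these calls cannot be set against the 0% of the full fit. Without TKO D6 replicate 1, which leaves clone 2 as the only TKO library of D6, the Ezh2 difference in TKO was 0.66. Eed at D6 was 0.40 ± 0.13 above WT in Tet1-/-, 0.42 ± 0.14 in DKO and 0.42 ± 0.14 in TKO, with adjusted p of 0.331, 0.247 and 0.118, and every knockout library was above the 3 WT clones. Groups did not overlap with WT at D6 for 15.9% of genes in Tet1-/-, 37.3% in DKO and 36.3% in TKO.

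**Figure D4:**
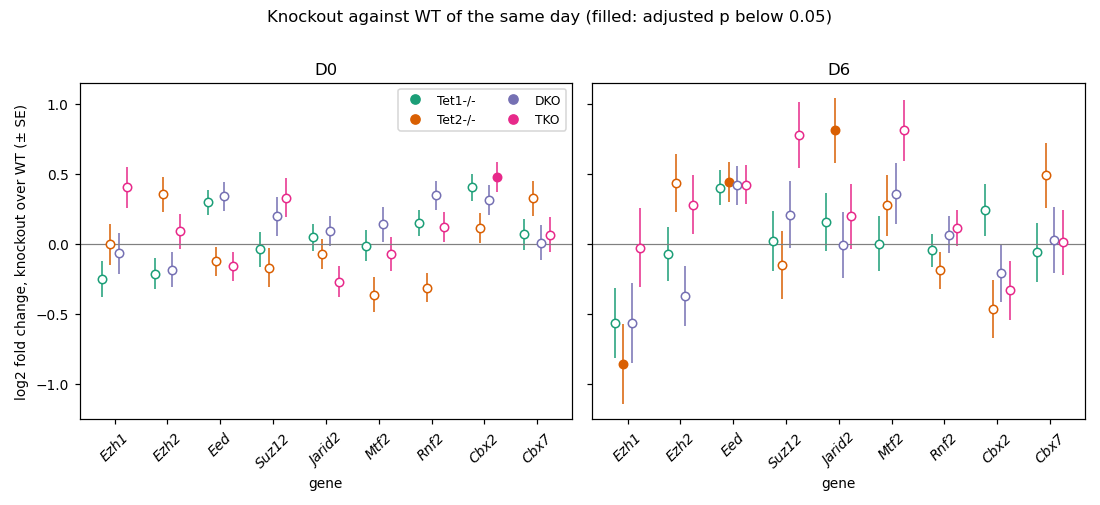
Log2 fold change of each knockout over WT of the same day with its standard error (vertical axis) for each gene, D0 left and D6 right, where a filled circle passed the test (adjusted p under 0.05). At D0 only Cbx2 in TKO (0.48) is filled, and at D6 only Eed (0.44), Jarid2 (0.81) and Ezh1 (-0.86) in Tet2-/- are.

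Whether the change on LIF withdrawal itself differed from WT was tested as an interaction. In Tet2-/- it differed for 2 of 9 members, Eed (0.56 ± 0.18, edgeR adjusted p = 0.0376) and Jarid2 (0.88 ± 0.27, adjusted p = 0.0320), where 16% of genes passed, 7.87% with a positive difference as here. Their log2 changes from D0 to D6 were -1.29 and -0.08 in Tet2-/- and -1.86 and -0.97 in WT. With clone as a replicate block, 5 members and 20.6% of genes passed, the added ones being Ezh1 (-0.84, adjusted p = 0.0160), Cbx2 (-0.57, adjusted p = 0.0282) and Mtf2 (0.69, adjusted p = 0.0211). Ezh1 and Cbx2 also passed without Tet1-/- D6 replicate 2 (adjusted p 0.0428 and 0.0165), and Mtf2 without WT D6 replicate 1 (0.96, adjusted p = 0.00181). Eed lost its call in 7 of 24 fits that each left out 1 library (adjusted p 0.0686 to 0.180), without WT D0 or D6 replicate 2 or 3, Tet2-/- D0 replicate 1 or either Tet2-/- D6 library. Jarid2 lost it in 7 of 24 too (adjusted p 0.0728 to 0.116), without WT D0 replicate 2, WT D6 replicate 2 or 3, or any Tet2-/- library. Without Tet1-/- D6 replicate 2, 4 members and 18.8% of genes passed.

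In Tet1-/- and DKO the interaction passed for 0 members by edgeR and by DESeq2 (0% of genes by edgeR in each, 0.198% and 0.134% by DESeq2), and at an unadjusted p under 0.05 for 0 and 1, beside 1200 and 1255 of 15639 genes. In TKO it passed for 0 members by edgeR (5.97% of genes passed) and 3 by DESeq2 (10% of genes), with 3 at an unadjusted p under 0.05, beside 3687 of 15639 genes. The 3 at an unadjusted p were Cbx2 (-0.82 ± 0.24, edgeR adjusted p = 0.0512), Mtf2 (0.87 ± 0.26, adjusted p = 0.0544) and Eed (0.57 ± 0.18, adjusted p = 0.0612), and with clone as a replicate block all 3 passed (adjusted p = 0.0135, 0.0117 and 0.0335), with 8.92% of genes. Without WT D6 replicate 1, 5 members and 12.5% of genes passed in TKO, with Jarid2 (0.73, adjusted p = 0.0328) and Suz12 (0.76, adjusted p = 0.0382) beside them. Cbx2 in TKO went from 50.8 to 55.7 CPM in clone 1 and from 63.9 to 56.7 in clone 2. In WT every D6 clone was above every D0 clone, and the days did not overlap there for 70.7% of genes.

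Ezh1, Suz12 and Cbx2 lie on chromosome 11 and Ezh2 on chromosome 6, and in mm9 their genes span chr11:101052429-101087777 (-), chr11:79806608-79847625 (+), chr11:118884276-118892584 (+) and chr6:47480273-47545340 (-). Chromosome medians were taken over genes with a mean above 5 CPM, 436 on chromosome 6 and 836 on chromosome 11, relative to the median of the autosomes. TKO clone 2 had a median over chromosome 6 that was 0.43 above WT at D0 and 0.47 at D6 (log2), and over chromosome 11 of 0.38 and 0.16. At D6 this clone had 308 CPM of Ezh2 against 161 in TKO clone 1, 766 against 589 of Suz12 and 58.6 against 37.8 of Ezh1, while Cbx2 was 56.7 against 55.7. At D0 its Ezh2 was 250.4 CPM against 276 in clone 1. Mtf2, on chromosome 5, was also higher in clone 2, at 463 against 374 CPM, where its chromosome median was -0.10. In Tet2-/- the chromosome 11 medians were -0.18 and -0.24 at D6, beside Ezh1 at -0.85 and -0.79, Cbx2 at -0.42 and -0.46 and Suz12 at -0.03 and -0.12 relative to the WT mean (log2). The chromosome 6 medians were 0.145 and 0.17 at D0, beside Ezh2 at 0.38 and 0.39, and 0.09 and 0.13 at D6, beside Ezh2 at 0.48 and 0.43. With the chromosome median as an offset, the differences in Tet2-/- at D6 were -0.62 for Ezh1 (edgeR adjusted p = 0.0354), 0.45 for Eed (0.0281) and 0.73 for Jarid2 (0.0279). Chromosome copy number was not measured, and its part in these levels was not tested.

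**Figure D5:**
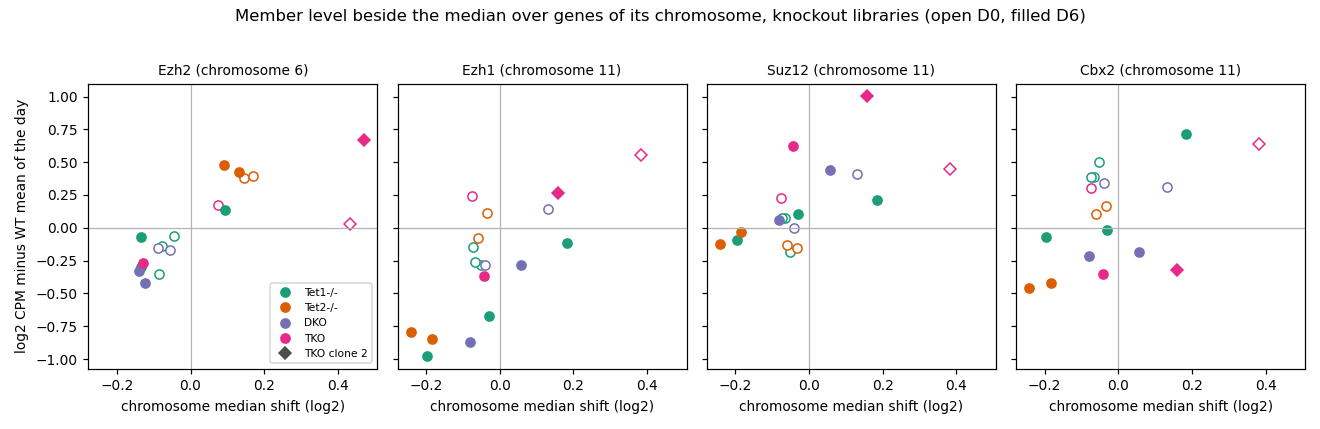
Level of Ezh2, Ezh1, Suz12 and Cbx2 in each knockout library as log2 CPM minus the WT mean of the day (vertical axis) against the median shift of genes averaging over 5 CPM on the same chromosome (horizontal axis, log2), D0 open, D6 filled and TKO clone 2 as diamonds. The diamonds lie farthest right on chromosome 6 at 0.43 and 0.47. The 3 libraries with the lowest chromosome 11 medians, both Tet2-/- and 1 Tet1-/- at D6, are among the 4 with the lowest Ezh1. The other of the 4, DKO D6 replicate 2, had a median of -0.08. In the Tet2-/- and Tet1-/- libraries named, in that order, Suz12 was -0.03, -0.12 and -0.09, and Cbx2 was -0.42, -0.46 and -0.07.

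The genes whose levels followed each member most closely were found by Pearson's r of log2(CPM + 1) over the 24 libraries after subtracting the mean of each day, as a description. For Ezh2 they were Kdm5a (r = 0.95), Cdca3 (0.91) and Setd5 (0.91), all on chromosome 6, and for Ezh1 Ndel1 (0.92), Aurkb (0.91) and Smarcd2 (0.90), all on chromosome 11. For Suz12 they were Rpl19 (0.89), Rhot1 (0.89) and Tada2a (0.89), also on its own chromosome. For Jarid2 they were Zfp459 (0.93) and Jmy (0.92), both on its chromosome 13, and Btbd11 (0.92). In all, 11 of 27 such genes lay on the chromosome of their member, and a chromosome of a member held 3.76% to 8.45% of the genes tested. Eed went with Zfp35 (0.92) and Dnttip2 (0.92), and Mtf2 with Tdrd12 (0.95), Kpna2 (0.92) and Cenpi (0.92). Cbx2 went with Fzd1 (0.91), Mpdz (0.88) and Gdf10 (0.87), Cbx7 with Slc25a33 (0.90), Gcnt2 (0.90) and Gnpda1 (0.89), and Rnf2 with Zfp148 (0.91), Bmpr1a (0.90) and Vamp3 (0.89). Among the members, Suz12 and Mtf2 went together most (0.83), and Ezh1 and Eed went apart most (-0.64). The 24 points share clones and libraries.

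The other Polycomb genes were followed as 40 genes in 4 lists, which held 7 other PRC2 subunits, 11 other canonical PRC1 subunits, 16 variant PRC1 subunits and 6 opposing enzymes. In WT from D0 to D6, 28 of the 40 passed, 18 higher and 10 lower, against 66.3% of all genes (33.5% higher and 32.8% lower). Of the other PRC2 subunits 2 rose and 2 fell, of canonical PRC1 6 rose and none fell, of variant PRC1 8 rose and 6 fell, and of the opposing enzymes 2 rose and 2 fell. The 8 with the largest changes began with E130012A19Rik (Epop, a PRC2 cofactor of ESCs), which fell from 592 to 84.1 CPM (log2 fold change -2.81 ± 0.23, edgeR adjusted p = 8.68e-09). Phf1, a PRC2 accessory protein of the same family as Mtf2, rose by 1.78 from a low level of 1.11 to 3.83 CPM. Kdm6b, a demethylase that removes the PRC2 mark, rose by 1.43 to 129 CPM, and Auts2 (1.43) and Yaf2 (1.39), of variant PRC1, rose too. Scml2 (1.23), Phc2 (1.19) and Phc3 (1.18) completed the group. In Tet1-/-, Tet2-/-, DKO and TKO, 23, 17, 22 and 20 of the 40 passed from D0 to D6, against 63.4%, 40%, 55.6% and 50.5% of all genes.

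Against WT at D6, 15 of the 40 passed in Tet2-/-, 7 higher and 8 lower, against 28.5% of all genes (12.9% higher and 15.6% lower). Scml2 was lowest relative to WT at 1.97 against 12.8 CPM (log2 fold change -2.71 ± 0.46, edgeR adjusted p = 0.00545). Cbx8 (-1.69), Bcorl1 (-1.34), Phf1 (-1.27) and Rbbp7 (-0.74) were also lower, and Phc1 (1.00) and E130012A19Rik (0.99) were higher. Cbx8, an alternative reader to Cbx2 and Cbx7, was at 0.701 CPM in Tet2-/-, near the lower end of what was kept. At D0, 3 of the 40 passed in Tet2-/- (Scml2 -1.63, Bcorl1 -0.82 and Kdm6b 0.56) and 3 in TKO (Phf19 1.07, Kdm6b 0.77 and Rybp 0.63), against 9.8% and 8.61% of all genes, and 0 in Tet1-/- and DKO. In the interaction test 6 of the 40 passed in Tet2-/-, against 16% of all genes, with negative values for Phf1 (-1.65), Kdm6b (-1.11), Phc2 (-0.86) and Rbbp7 (-0.55) and positive values for Max (0.64) and Pcgf6 (0.60). In TKO 2 passed, Kdm6b (-1.66) and Phc2 (-0.98), against 5.97% of all genes.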

How the data were processed

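RNA-seq libraries of ESC clones were analysed, 12 at D0 and 12 at D6, with 11 clones sequenced on both days. The authors made them from polyadenylated RNA, mapped paired-end reads to mm9 with STAR 2.5.1, and deposited counts as whole numbers per RefSeq transcript line, without normalization or pooling. The deposited tables are named for featureCounts, and its use of strand is not given in the sources used here, so reads of overlapping or antisense genes cannot be assigned with certainty. The tables hold 0 lines of ERCC spike-in RNA, so the authors' spike-in scaling was not repeated. Each of 31928 lines carries 1 of 22926 symbols, and the first line per symbol was used. Ezh2 and Suz12 had 2 lines each, Jarid2 3 and Mtf2 6.

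Counts were tested with edgeR 4.0.16 (R 4.3.3, limma 3.58.1) after TMM scaling, with genes kept by filterByExpr at a minimum count of 10. Knockouts were compared with WT in a fit of each day (14456 genes at D0, 15435 at D6), and days and interactions in a joint fit (15639 genes). A gene passed at a Benjamini-Hochberg adjusted p under 0.05 over all genes tested, and ratios were tested by exact permutation. By counting error alone, a library with 0 reads on a gene could hold up to 3, or 0.0814 to 0.151 CPM. The scripts were tested on simulated counts. Clones pair the days by the labels (r of D6 with D0 deviations 0.0813 to 0.193), where a DKO label of D6 without a point was read as the DKO clone of the same digits. Replicate numbers name different clones on the 2 days in WT, DKO and Tet1-/-. The members, the lists and the tests were chosen with earlier results of these data known. Named were all members, at most 8 other Polycomb genes per comparison with the largest change among those that passed, the 3 genes most like each member, and Pou5f1 of the marker lists, of which some genes are not reported here, so that a printed group can skip a larger change. Alternatives were DESeq2 1.42.0, its size factors, library totals, no filter, the highest line per symbol, a joint fit, replicate blocks and leaving out each library. A chromosome median as an offset and leaving out 1 clone at both days were added after seeing the data.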

Additional observations from a re-analysis of the deposited data

Results flagged for a closer look

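The change from D0 to D6 differed between Tet2-/- and WT for Eed and Jarid2, by a test of the difference itself (edgeR interaction contrast, Benjamini-Hochberg adjusted). For Eed the difference of the log2 changes was 0.56 (adjusted p = 0.0376), and it lost its call in 7 of 24 fits that each left out 1 library. For Jarid2 it was 0.88 (adjusted p = 0.0320), likewise lost in 7 of 24 fits. Of all genes, 16% passed this test. At D6 these Tet2-/- libraries also had 3175 to 3399 CPM of summed pluripotency markers against 1213 to 2662 in WT, whose part in the Eed and Jarid2 levels was not tested.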

How the results depend on the processing

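Tet2-/-, DKO and TKO had 2 clones each, and the lowest member level was 21.3 CPM. Of single members' values under alternatives other than leaving out a library, 13 lost and 42 gained a call and none reversed a call. Library totals in place of TMM moved the median of all genes from D0 to D6 by 0.14 to 0.21 (log2). The counts that moved by over 1.5 times were as follows, and the cause was not tested. At D0, Tet1-/- went from 0 to 1 with DESeq2, Tet2-/- from 0 to 2 with library totals, and TKO from 1 to 0 with the joint fit, the chromosome offset and the replicate number as a block. At D6, Tet2-/- went from 3 to 5 with the joint fit, and TKO from 0 to 2 with DESeq2 and 3 with the joint fit. With clone as a replicate block, which uses the pairing of clones between days, the day counts went from 1 to 2 in Tet2-/- and from 3 to 5 in TKO, and the interaction counts from 2 to 5 in Tet2-/- and from 0 to 3 in TKO. The chromosome offset gave 5 for the day change in TKO. The interaction count in TKO was also 1 with DESeq2 size factors, 3 with DESeq2, and 2 with library totals, no filter and the chromosome offset. In these fits the share of all genes that passed was 1.72% in Tet1-/- at D0, 10.1% in Tet2-/- at D0 and 4.49% to 8.18% in TKO at D0. It was 36.5% in Tet2-/- and 8.39% to 9.48% in TKO at D6, 42.6% in Tet2-/- and 52.5% to 53.1% in TKO for the day change, and 20.6% in Tet2-/- and 3.99% to 10% in TKO for the interaction.

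Leaving out 1 library at a time, the D0 counts ranged from 0 to 2 in Tet1-/-, 0 to 4 in Tet2-/-, 0 to 3 in DKO and 0 to 3 in TKO. The D6 counts ranged from 0 to 4 in Tet2-/- and 0 to 2 in TKO, and were 0 in Tet1-/- and DKO. The day counts ranged from 5 to 8 in WT, 6 to 7 in Tet1-/-, 1 to 2 in Tet2-/-, 4 to 7 in DKO and 1 to 5 in TKO. The interaction counts ranged from 0 to 4 in Tet2-/- and 0 to 5 in TKO, and were 0 in Tet1-/- and DKO. Both ratios stayed positive without any clone, from 0.77 to 0.90 for Cbx2 to Cbx7 and from 0.74 to 0.86 for Ezh1 to Ezh2 (exact permutation p = 0.00195 in each). Over all 24 libraries without pairing, permutation p was 3.03e-05 and 0.000182. That test ignored genotype and treated the 2 libraries of a clone as independent, so its smaller p is not firmer support. The labels name no shared source for equal replicate numbers within a day, and same-numbered knockout and WT libraries had r of -0.377 to 0.312 between their deviations. Blocking on them took the Tet2-/- count at D6 from 3 to 2 (Ezh1, adjusted p = 0.0565) and changed no other count at D6.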
